A study of Mus musculus with 6 samples.

Results

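The receptors for the Fc part of antibodies, the ITAM adaptor chains that carry their signal and the kinases that act next were measured in liver RNA as 9 genes chosen by symbol. They were the Fc gamma receptors Fcgr1, Fcgr2b, Fcgr3 and Fcgr4, the adaptors Fcer1g and Tyrobp, the kinases Syk and Btk, and the phospholipase Plcg2. The count table held 32212 gene rows, and all 9 genes were among the 13867 that passed the filter on low counts. The livers came from male C57BL/6 mice aged 2 years and fed normal chow, 3 wild type (WT) and 3 lacking chromogranin A (CgA-KO), the prohormone encoded by Chga, with 1 poly(A) RNA library per mouse. The study asked how livers of aged mice with and without CgA differ. Whether the mice were littermates, and how the knockout line was made, are not given in the sources used here.

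Fc gamma receptors bind the constant part of IgG on antibody-coated particles. Most of them activate the cell and pair with the FcR gamma chain, the product of Fcer1g, which carries an immunoreceptor tyrosine-based activation motif (ITAM). Src-family kinases phosphorylate the ITAM, Syk docks on it, and Btk and phospholipase C gamma 2 turn the signal into calcium release. Fcgr2b instead carries an inhibitory motif (ITIM) and dampens the signal. In the liver, Kupffer cells, the resident macrophages, take up antibody-coated material with the activating receptors, and sinusoidal endothelial cells are known for a high level of Fcgr2b.

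Between 10558616 and 31087453 counts were assigned per library, so that 3 counts, taken as the lowest level to be read, stood for 0.0951 to 0.269 CPM (counts scaled to a common library size). Chga had 0 counts in all 6 libraries, so it could not serve as a check of the genotype labels. Levels are given as CPM after TMM scaling, which aligns the bulk of genes between libraries, and tests used edgeR, with Benjamini-Hochberg adjustment across the whole table. For the genes that passed the filter the log2 fold change had a median of -0.01, which became 0.26 with scaling by library size alone. WT replicate 1, the shallowest library, stood apart for some of the 9 genes, and its values are given beside each of them. Each replicate is a separate mouse, and the p-values measure the spread among these 6 mice.

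In the CgA-KO livers 6 of the 9 genes were higher at an adjusted p under 0.05 (Fcgr1, Fcgr3, Fcgr4, Fcer1g, Tyrobp and Btk), and 0 were lower. Among all genes tested, 8.6% were called higher, 3.84% lower and 12.4% in either direction. For 7 of the 9 genes every CgA-KO library lay above every WT library, against 19% of all genes (33.6% without overlap in either direction). The log2 fold change was above 0 for 8 of the 9 genes, against 49.4% of all genes, and above 3 for Fcgr1 and Fcgr4, against 1.87% of all genes. The inhibitory receptor Fcgr2b, Syk and Plcg2 did not pass the test. The median log2 fold change of the 9 genes was 2.53. In whole liver, fewer cells of a type and less RNA per cell cannot be told apart. Markers of Kupffer cells and other macrophages moved in the same direction: their summed level ranged over 363 to 538 CPM among WT and 1740 to 2471 CPM among CgA-KO livers, and 11 of 15 were called higher (7 without WT replicate 2). Their part in the results that follow was not tested.

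**Figure D1:**
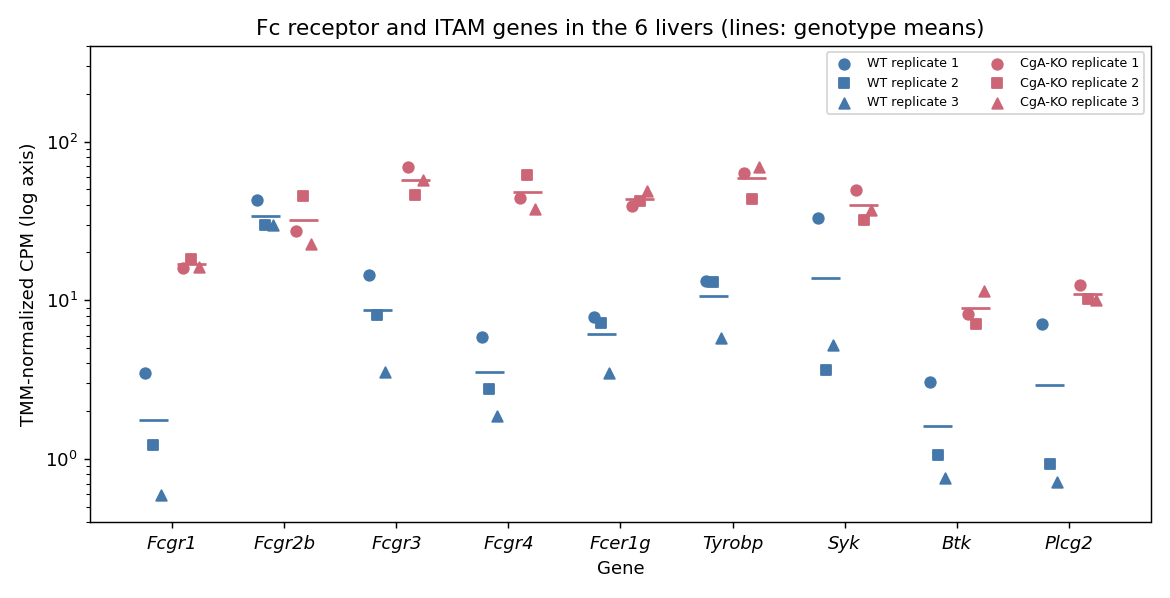
TMM-normalized CPM (log axis) of the 9 genes in each of the 6 livers, with WT in blue, CgA-KO in red, a symbol for each replicate and a line at each genotype mean. Fcgr1, Fcgr3, Fcgr4, Fcer1g, Tyrobp, Btk and Plcg2 do not overlap between the genotypes, whereas Fcgr2b and Syk do.

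**Figure D2:**
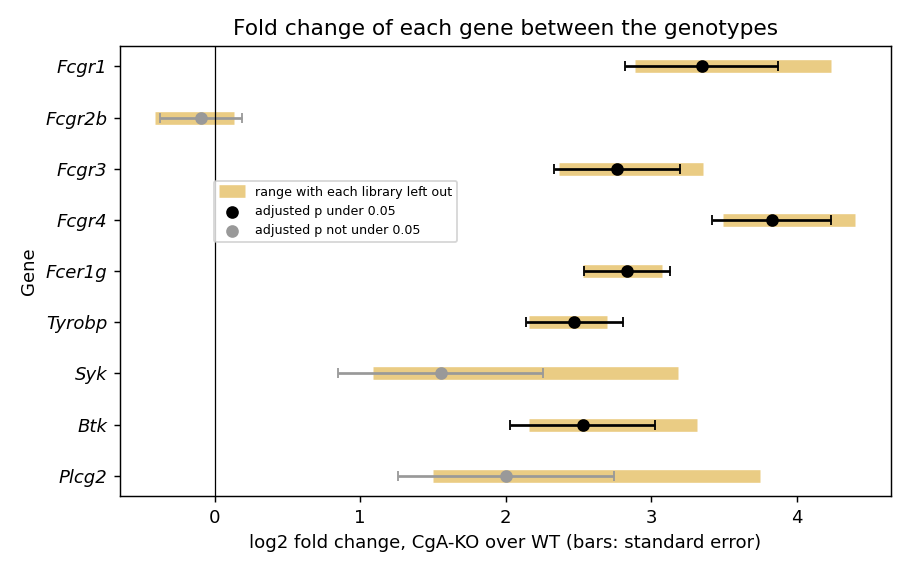
log2 fold change of CgA-KO over WT for each gene (point) with its standard error (bar) and the range when each library is left out in turn (band). Black points passed an adjusted p of 0.05 and grey points did not, and only the band of Fcgr2b, from -0.41 to 0.13, crosses 0.

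Fcgr4, an activating receptor that binds mainly IgG2a and IgG2b, had the largest fold of the 9 genes with all 6 livers in the fit. It was at 5.91, 2.77 and 1.86 CPM in WT replicates 1, 2 and 3, and at 44.2, 61.6 and 37.7 CPM in the CgA-KO replicates. The lowest CgA-KO liver was 6.38-fold above the highest WT liver. Fcgr4 rose 14.2-fold (log2 fold change 3.83, SE 0.409, edgeR adjusted p = 0.00296), which ranked 29 by p-value among the genes tested. It stayed called with each library left out, with log2 fold changes of 3.50 to 4.41.

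Fcgr1, the high-affinity IgG receptor, was at 3.49, 1.23 and 0.593 CPM in the WT livers, from 39, 29 and 14 counts. The CgA-KO livers held 16.1, 18.2 and 16.1 CPM and differed from each other by at most 1.14-fold, whereas the WT livers spread over 5.89-fold with replicate 1 the highest. Fcgr1 rose 10.2-fold (log2 fold change 3.35, SE 0.526, edgeR adjusted p = 0.00745). Without WT replicate 2 its adjusted p was 0.0595 in edgeR, with a log2 fold change of 3.16.

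Fcgr3, the low-affinity activating receptor of macrophages, natural killer cells and neutrophils, was at 14.3, 8.04 and 3.52 CPM in WT and at 68.9, 46.0 and 57.6 CPM in CgA-KO. Every CgA-KO liver was above the highest WT liver, by 3.21-fold or more. The gene rose 6.81-fold (log2 fold change 2.77, SE 0.436, edgeR adjusted p = 0.00751). Without WT replicate 2 it was not called, at an adjusted p of 0.0717.

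Fcgr2b, the inhibitory receptor, was not called. Its WT levels of 42.7, 29.9 and 29.8 CPM overlapped the CgA-KO levels of 27.5, 45.6 and 22.5 CPM, and CgA-KO replicate 2 was the highest of the 6 livers. The WT mean was 34.1 ± 7.44 CPM and the CgA-KO mean 31.9 ± 12.1 CPM (SD, n = 3 each). The log2 fold change was -0.10 with an SE of 0.279 (edgeR adjusted p = 0.858), and its sign depended on the scaling, being 0.15 by library size alone. All 3 ratios of an activating receptor to Fcgr2b were higher in every CgA-KO liver than in every WT liver. How often other genes separate on a ratio to Fcgr2b was not computed, and by level alone 19% of all genes lay higher in every CgA-KO liver. Because the mean of Fcgr2b differed little, these ratios largely repeat the folds of the receptors and are not a separate result. They were formed within a library, so that scaling cancels except through the 0.5 CPM added to each level. That addition is close to the Fcgr1 level of 0.593 CPM in WT replicate 3, whose ratio therefore depends on it. The log2 ratio of Fcgr4 to Fcgr2b was -3.22 ± 0.464 in WT and 0.61 ± 0.161 in CgA-KO (SD, n = 3 each). That of Fcgr1 was -4.12 ± 0.679 and -0.84 ± 0.422, and that of Fcgr3 was -2.10 ± 0.724 and 0.89 ± 0.756 (SD, n = 3 each). With 3 against 3 livers the two-sided exact permutation test can give no p below 0.1, and each of these ratios reached it (0.129 after adjustment over 9 ratios).

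Per kilobase of exon, so that receptors can be set side by side, Fcgr2b made up 34.02%, 41.4% and 58.0% of the summed level of the 4 Fc gamma receptors in the WT livers. In the CgA-KO livers its share was 5.53%, 8.70% and 5.30%. Fcgr4 took 16.7% to 21.7% in WT and 41.0% to 54.2% in CgA-KO, without overlap. Fcgr1 took 2.58% to 6.22% in WT and 7.23% to 8.51% in CgA-KO, and the share of Fcgr3 overlapped, at 22.8% to 38.1% and 29.3% to 46.2%. The sum itself was 8.89 to 21.7 CPM per kb in WT and 73.3 to 90.4 CPM per kb in CgA-KO. With the longest transcript as the length, the share of Fcgr2b was 41.9% to 66.1% in WT and 7.44% to 12.5% in CgA-KO.

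**Figure D3:**
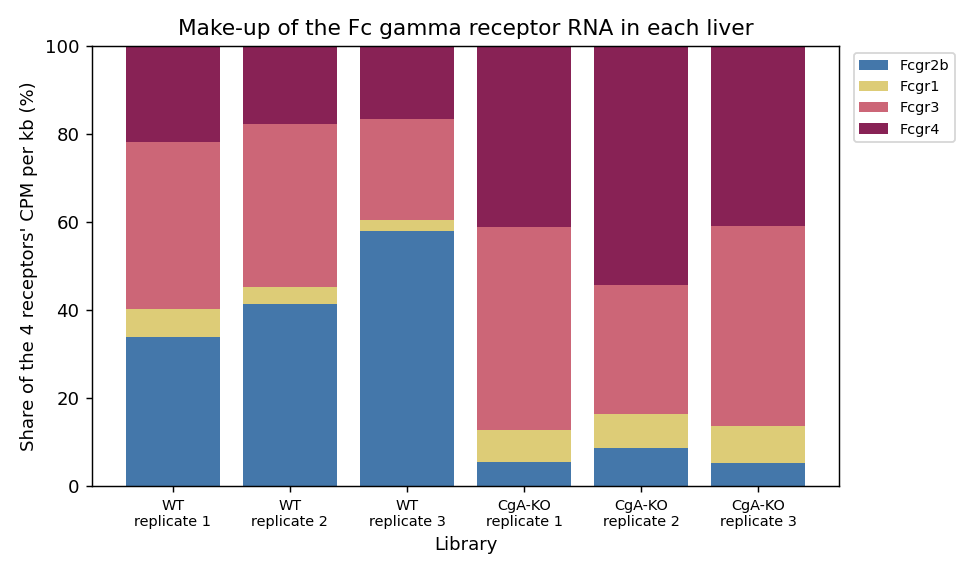
Share of each Fc gamma receptor in the summed CPM per kb of the 4 receptors (%), in each of the 6 livers. The Fcgr2b segment covers 34.02% to 58.0% of the WT bars and 5.30% to 8.70% of the CgA-KO bars, and the Fcgr4 segment is larger in every CgA-KO bar than in every WT bar.

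Genes of the same family can share reads. Of the 31-base words in the transcripts of Fcgr3, 13.4% also occurred in Fcgr2b, and 5.78% of those of Fcgr2b occurred in another gene, so reads could have been split between this pair. For Fcgr4 the share was 1.31%, and Fcgr1, Fcer1g, Tyrobp, Btk and Plcg2 had 0%. Fcgr2b (chr1:170958617-170976547), Fcgr4 (chr1:171018920-171029761), Fcgr3 (chr1:171051174-171064935) and Fcer1g (chr1:171229572-171234365) lie within 275.7 kb of chromosome 1 in GRCm38, while Fcgr1 lies on chromosome 3 (chr3:96282909-96293969). Within this stretch Fcgr4, Fcgr3 and Fcer1g were called higher and Fcgr2b was not. An antisense gene, Gm38204, overlaps Fcgr2b by 3175 bases and has no row in the table, and whether counting used strand is not stated.

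The bases just before the start sites of genes that rose are shown so that the letters upstream of receptors that moved together can be compared. RefSeq start sites in GRCm38.p6 were found for 8 of the 9 genes, all but Tyrobp. The 250 bases upstream of each were searched on both strands for GAGGAA (a PU box, the core bound by the myeloid factor PU.1), TTCNNNGAA (a GAS site, the core bound by STAT dimers) and an ISRE-type core of interferon response elements (GAAA followed by any 2 bases and GAAA). In the lines below, read 5′ to 3′ on the strand of the gene, capitals mark a match to any of them, and the last base lies next to the start site.
Fcgr1, chr3:96293970-96294219, minus strand: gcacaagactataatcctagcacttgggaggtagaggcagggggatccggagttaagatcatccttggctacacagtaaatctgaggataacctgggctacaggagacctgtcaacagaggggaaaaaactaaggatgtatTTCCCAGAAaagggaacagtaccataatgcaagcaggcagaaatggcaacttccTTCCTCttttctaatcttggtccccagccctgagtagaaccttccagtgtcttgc
Fcgr4, chr1:171018676-171018925, plus strand: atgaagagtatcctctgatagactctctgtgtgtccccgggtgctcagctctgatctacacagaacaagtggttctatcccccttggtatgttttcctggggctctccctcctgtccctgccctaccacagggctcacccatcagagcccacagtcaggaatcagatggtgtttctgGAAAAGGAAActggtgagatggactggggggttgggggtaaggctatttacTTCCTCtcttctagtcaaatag
Fcgr3, chr1:171059404-171059653, minus strand: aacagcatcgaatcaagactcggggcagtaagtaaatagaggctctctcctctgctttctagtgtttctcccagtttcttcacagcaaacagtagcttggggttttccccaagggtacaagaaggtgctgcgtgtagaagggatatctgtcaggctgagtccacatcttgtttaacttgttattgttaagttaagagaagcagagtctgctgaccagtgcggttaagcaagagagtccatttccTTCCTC
Fcer1g, chr1:171234350-171234599, minus strand: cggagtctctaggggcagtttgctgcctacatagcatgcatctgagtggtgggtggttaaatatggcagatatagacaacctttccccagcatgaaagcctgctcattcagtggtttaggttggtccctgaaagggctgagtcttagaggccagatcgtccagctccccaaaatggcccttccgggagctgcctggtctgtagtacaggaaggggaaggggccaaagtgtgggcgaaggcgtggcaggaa
The PU box letters stand 55 to 50 bases upstream in Fcgr1, 22 to 17 in Fcgr4 and 6 to 1 in Fcgr3, each on the opposite strand, so that the printed line reads TTCCTC. Fcgr3 has a second RefSeq start, with a window shifted so that the same letters lie 15 to 10 bases upstream. Fcgr1 also holds TTCCCAGAA at 109 to 101 bases, and Fcgr4 holds GAAAAGGAAA at 73 to 64 bases. None of the 3 motifs occurs in the window of Fcer1g, Fcgr2b, Btk or Plcg2, while one of the start sites of Syk has GAGGAA 9 to 4 bases upstream. Of the 10 windows of these 8 genes, 5 held the PU box letters, and the 2 windows of Fcgr3 overlap. Over 32851 windows of the same length 23.3% held them, 7.02% held the GAS letters and 2.98% the ISRE-type letters. RefSeq and GENCODE place some starts differently, so that 27 bases of the Fcgr3 window, 187 of the Fcgr2b window and all 250 of one Syk window lie in GENCODE exons. A match is a run of letters and was not tested as a site of binding.

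The adaptor chains rose with the activating receptors. Fcer1g was at 7.79, 7.15 and 3.47 CPM in WT and at 39.1, 42.4 and 48.5 CPM in CgA-KO, with the lowest CgA-KO liver 5.02-fold above the highest WT liver. Its rise was 7.13-fold (log2 fold change 2.83, SE 0.298, edgeR adjusted p = 0.00296), and it ranked 24 by p-value. Tyrobp encodes DAP12, the ITAM chain used by TREM and killer cell receptors. It was at 13.3, 12.98 and 5.76 CPM in WT and at 63.4, 43.7 and 69.6 CPM in CgA-KO, and the groups did not overlap. Tyrobp rose 5.55-fold (log2 fold change 2.47, SE 0.334, edgeR adjusted p = 0.00486). Both adaptors stayed called in every alternative fit, with log2 fold changes of 2.53 to 3.07 for Fcer1g and 2.16 to 2.70 for Tyrobp when each library was left out. The log2 ratio of Fcer1g to Tyrobp was -0.74 ± 0.081 in WT and -0.42 ± 0.335 in CgA-KO (SD, n = 3 each), and the groups overlapped (exact permutation p = 0.2).

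Behind the receptors the result was less even. Btk, a Tec-family kinase of B cells and myeloid cells, was at 3.05, 1.06 and 0.762 CPM in WT and at 8.17, 7.04 and 11.4 CPM in CgA-KO. All CgA-KO livers lay above all WT livers, 2.31-fold at the closest, and WT replicate 1 was the highest WT liver. Btk rose 5.77-fold (log2 fold change 2.53, SE 0.498, edgeR adjusted p = 0.0152). It lost its call without WT replicate 2 (edgeR adjusted p = 0.0683) and without WT replicate 3 (0.0610).

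Syk, the kinase that docks on the phosphorylated ITAM, was at 32.8, 3.66 and 5.21 CPM in WT and at 49.7, 32.0 and 37.0 CPM in CgA-KO. WT replicate 1 lay 7.39-fold above the mean of the other WT livers and within the range of CgA-KO. The log2 fold change was 1.55 with an SE of 0.704, which did not pass (edgeR adjusted p = 0.182). Plcg2, which cleaves membrane lipid to start calcium release, had the same outlying liver. It was at 7.08, 0.936 and 0.720 CPM in WT, with replicate 1 at 8.55-fold the mean of the other WT livers, and at 12.5, 10.2 and 10.04 CPM in CgA-KO. Its groups did not overlap, but the log2 fold change of 2.00 (SE 0.741) did not pass either (edgeR adjusted p = 0.113).

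Markers of several blood cells were high in WT replicate 1, B cell markers by the largest factor of the marker lists. The summed level of 8 B cell markers was 57.9, 4.08 and 6.73 CPM in the WT livers and 52.0, 14.1 and 9.73 CPM in the CgA-KO livers, so replicate 1 of each genotype was high. T cell markers summed to 17.02, 3.36 and 6.65 CPM in the WT livers, Kupffer cell and macrophage markers to 537.9, 363.2 and 375.0 CPM, and Clec4f alone was at 96.1, 29.1 and 30.6 CPM. The receptors that pair with Fcer1g or Tyrobp summed to 90.8, 38.8 and 21.9 CPM. Over 12284 genes, WT replicate 1 was at a median of 0.974 times the mean of the other WT livers. Without it the log2 fold changes were 3.19 for Syk (edgeR adjusted p = 0.000553) and 3.75 for Plcg2 (0.000471), and 8 of the 9 genes were called. The part of B cell or other blood cell RNA in these values was not tested. Btk (3.34-fold), Fcgr1 (3.82-fold), Fcgr4 (2.55-fold) and Fcgr3 (2.48-fold) were also higher in WT replicate 1 than in the mean of the other WT livers, more than Fcer1g (1.47-fold), Fcgr2b (1.43-fold) and Tyrobp (1.42-fold).

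**Figure D4:**
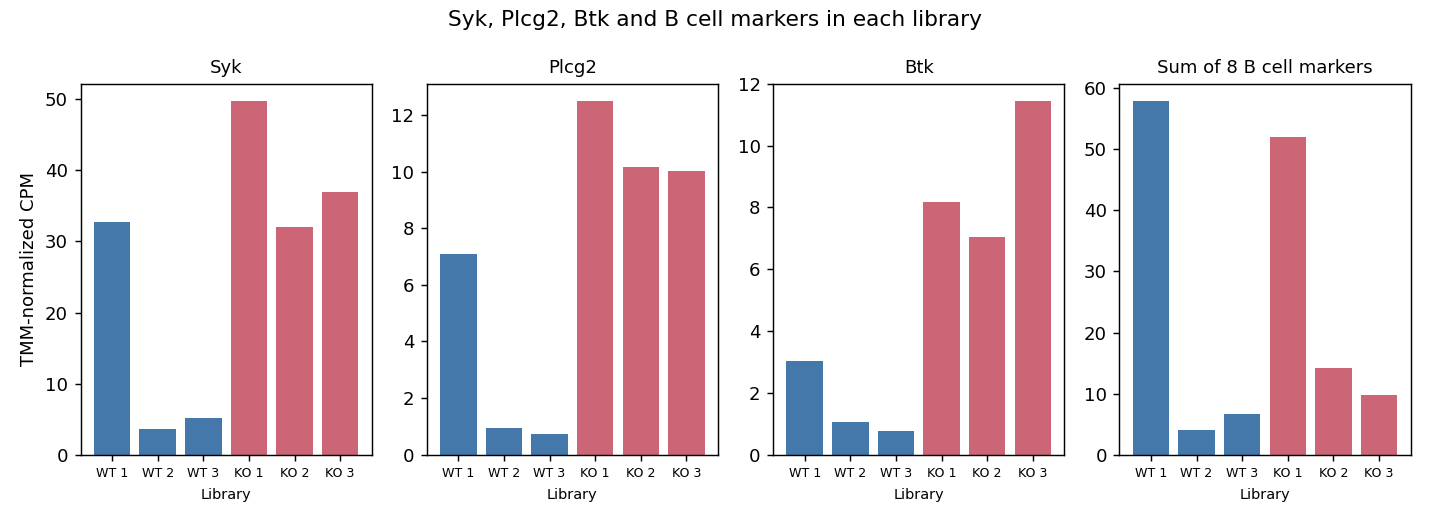
TMM-normalized CPM of Syk, Plcg2 and Btk and the summed CPM of 8 B cell markers in each library, with WT in blue and CgA-KO in red. WT replicate 1 reaches 32.8 CPM for Syk, 7.08 CPM for Plcg2 and 57.9 CPM for the B cell markers, while the other WT livers lie at or below 5.21, 0.936 and 6.73 CPM.

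Per kilobase of exon, Tyrobp had the highest level of the 9 genes in both genotypes, at a WT mean of 15.99 ± 6.37 CPM per kb and 88.3 ± 20.3 CPM per kb in CgA-KO (SD, n = 3 each). Fcer1g came next, at 7.02 ± 2.67 and 49.6 ± 5.41 CPM per kb. In WT the order went on with Fcgr2b (5.90 ± 1.28), Fcgr3 (4.97 ± 3.13) and Fcgr4 (2.80 ± 1.69 CPM per kb). Each neighbouring pair from Fcer1g to Fcgr4 lay within its spread there. In CgA-KO it went on with Fcgr4 (38.1 ± 9.81), Fcgr3 (33.1 ± 6.59), Fcgr1 (6.49 ± 0.475) and Fcgr2b (5.50 ± 2.10 CPM per kb). Fcgr4 and Fcgr3 lay within their spread there, as did Fcgr1 and Fcgr2b, whereas the lowest Fcgr3 value in CgA-KO was 26.5 CPM per kb and the highest Fcgr1 value 7.04 CPM per kb. In WT and CgA-KO the signalling enzymes had means of 1.48 and 4.23 CPM per kb for Syk, 0.516 and 2.82 for Btk, and 0.677 and 2.54 for Plcg2. With the longest transcript as the length, Fcgr2b passed Fcer1g in WT (9.63 against 8.99 CPM per kb) and Fcgr1 in CgA-KO (8.99 against 6.49 CPM per kb). In CgA-KO, Fcgr3 then also passed Fcgr4 (42.7 against 38.1 CPM per kb), and Syk passed Fcgr1 (7.38 against 6.49 CPM per kb).

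The level of each of the 9 genes was also set against Csf1r, the growth factor receptor of macrophages, within each library. How often other genes overlap between the genotypes on this ratio was not computed. Csf1r was at 61.5, 11.8 and 13.5 CPM in WT and at 365, 190 and 114 CPM in CgA-KO (log2 fold change 2.96, SE 0.691, edgeR adjusted p = 0.0264), it was highest in WT replicate 1 among the WT livers, and it lost its call in 5 of 13 alternative fits. The difference in the log2 ratio to Csf1r was -0.04 for Fcgr1, -0.34 for Fcgr3, 0.51 for Fcgr4, -0.39 for Fcer1g, -0.71 for Tyrobp, -0.91 for Btk and -0.92 for Plcg2, each with overlapping groups. The log2 ratio of Fcgr2b to Csf1r was lower in every CgA-KO liver than in any WT liver, at 0.63 ± 1.003 in WT and -2.69 ± 0.893 in CgA-KO (SD, n = 3 each). That of Syk was also lower without overlap, with a difference of -1.09. Both reached the smallest exact permutation p of 0.1 (0.45 after adjustment over 9 ratios).

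The wider pathway was read from 8 lists of other genes. Of 102 tested genes on these lists, 58 were called higher and 0 lower, with a median log2 fold change of 2.27, against 12.4% called in either direction over all genes. Without WT replicate 2 the count was 21, and without WT replicate 3 it was 17. The lists overlap in the cells that express them and were chosen with earlier results of these data known, so the counts are descriptions.

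Among other Fc receptors and Fc-binding proteins 2 of 7 tested genes rose, and the median log2 fold change was 0.15. Those were Fcrl1, a receptor-like gene of B cells (log2 fold change 3.19, edgeR adjusted p = 0.00855), and Trim21, a cytosolic antibody receptor (0.89, edgeR adjusted p = 0.0357). Pigr, which carries IgA across epithelia, was at -0.17 (edgeR adjusted p = 0.722). Trim21 lost its call when any library but WT replicate 1 was left out, and then 1 of the listed genes was called. Of the receptors that signal through Fcer1g or Tyrobp, with the hemITAM lectins, 10 of 16 rose and 0 fell, with a median of 2.83. They included Clec1b, the platelet and Kupffer cell lectin CLEC-2 (2.59, edgeR adjusted p = 0.00355), and Klrd1, the natural killer cell chain CD94 (3.42, edgeR adjusted p = 0.00740). Trem3 had 0 counts in every WT liver and 1.81, 1.08 and 1.26 CPM in CgA-KO, which is at least 7.92-fold higher than a floor of 3 counts per library. The count for these receptors was 5 without WT replicate 2, WT replicate 3 or CgA-KO replicate 1.

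The other ITAM chains included the T cell receptor chains Cd3e (log2 fold change 3.60, edgeR adjusted p = 0.0150), Cd3g (3.27, 0.0170) and Cd3d (3.65, 0.0230). On that list 5 of 7 genes rose. The count was 0 with limma-voom and without WT replicate 2 or WT replicate 3, all 3 of the named chains losing their call in each, and it was 2 without CgA-KO replicate 2. Src-family kinases and their regulators rose in 8 of 14 cases, Fgr (2.69, edgeR adjusted p = 0.00443) and Lyn (1.19, 0.0109) among them. Both are myeloid members of the kinase family that phosphorylates ITAMs. Leaving out WT replicate 3 left 1 called gene and Lyn lost its call, leaving out WT replicate 2 left 3, and leaving out CgA-KO replicate 1 or 2 left 4 or 5. Of 4 tested Syk-type and Tec-type kinases 2 rose, among them the T cell kinase Txk (4.72, edgeR adjusted p = 0.0176), and Tec was at 0.17 (0.601). Here too the count was 0 with limma-voom and without WT replicate 2 or WT replicate 3, and it was 1 without CgA-KO replicate 2.

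Downstream of Syk 17 of 30 scaffolds, lipases and effectors rose, with a median log2 fold change of 2.15. Was, the actin regulator of blood cells, was at 3.23 (edgeR adjusted p = 0.00429), and the phagocyte oxidase subunit Cybb was at 3.40 (0.00434). Leaving out WT replicate 2 left 8 called genes, WT replicate 3 left 6, and either of CgA-KO replicates 1 and 2 left 10.

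Chosen after their values were seen, 3 widely expressed relatives of blood cell genes on the lists did not pass in edgeR. Plcg1, the relative of Plcg2, was at 60.8, 55.5 and 77.1 CPM in WT and at 40.8, 47.4 and 36.6 CPM in CgA-KO (log2 fold change -0.63, edgeR adjusted p = 0.0676). Vav2 was at -0.44 (edgeR adjusted p = 0.0931) beside Vav1 at 2.85 (0.0112), which lost its call without WT replicate 2 or WT replicate 3. With DESeq2 both Plcg1 (-0.65, adjusted p = 0.0213) and Vav2 (-0.46, adjusted p = 0.0458) were called lower. Ptpn11 was at -0.04, and at 0.24 with scaling by library size alone, beside Ptpn6 at 1.56 (edgeR adjusted p = 0.0225).

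Inhibitory genes rose as well. Of 16 receptors with an ITIM, the motif that Fcgr2b also carries, 10 rose and 0 fell, with a median log2 fold change of 2.66. Lair1, a collagen receptor, was at 3.13 (edgeR adjusted p = 0.00180), Siglece, a sialic acid receptor, at 2.78 (0.00681) and Clec12a at 3.15 (0.00778). Without WT replicate 2 or WT replicate 3 the count was 4 of 16, and Clec12a lost its call without the former. The phosphatases that such receptors recruit and the Dok adaptors rose in 4 of 8 cases. Inpp5d, which encodes the phosphatase SHIP1 that Fcgr2b uses, was at 2.10 (edgeR adjusted p = 0.0267), Ptpn6, which encodes SHP-1, at 1.56 (0.0225) and Dok1 at 1.80 (0.0212). The count was 0 of 8 without WT replicate 2, WT replicate 3 or CgA-KO replicate 1, and 1 of 8 without CgA-KO replicate 2 or CgA-KO replicate 3, and Inpp5d lost its call in 7 of 13 alternative fits.

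**Figure D5:**
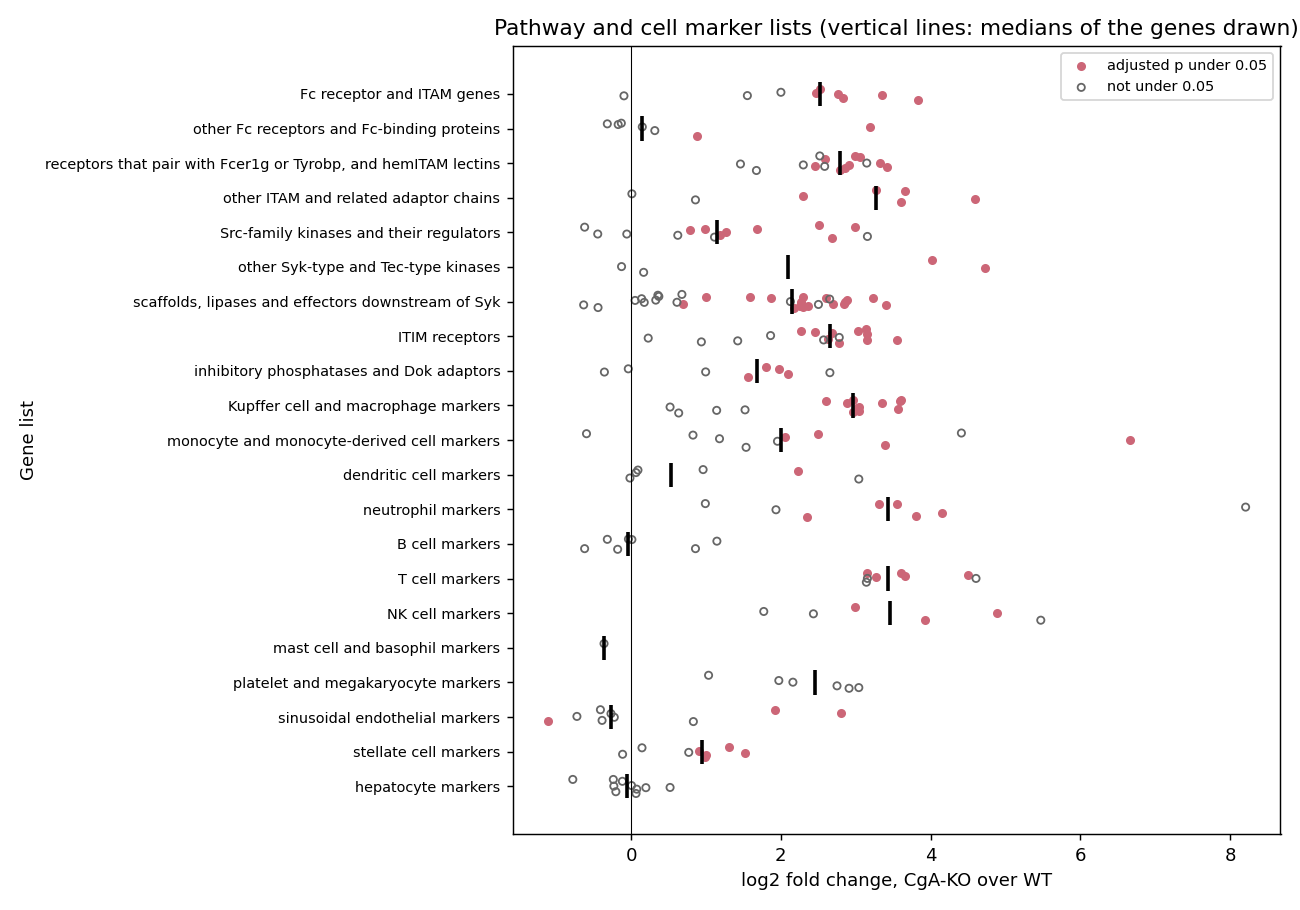
log2 fold change of CgA-KO over WT for each gene of the 9, of the 8 pathway lists and of the 12 cell marker lists, with filled points for an adjusted p under 0.05 and a vertical line at the median of the genes drawn. Trem3, at 0 in WT, is not drawn. Points of the receptor, ITIM and macrophage lists lie mostly between 2 and 4, whereas hepatocyte and B cell markers scatter around 0.

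Markers of the cells that carry these genes moved unequally. Of the Kupffer cell and macrophage markers, Clec4f (log2 fold change 2.96, edgeR adjusted p = 0.0122) and Cd5l (3.59, 0.00322) had the highest levels among those that rose, Clec4f losing its call without WT replicate 2 or WT replicate 3, and Marco and Cd163 overlapped between the genotypes. Monocyte markers rose in 4 of 10 cases (28.7 to 60.4 CPM summed in WT, 50.7 to 276 CPM in CgA-KO) and neutrophil markers in 5 of 8 (8.68 to 16.2 and 53.9 to 310 CPM, with CgA-KO replicate 2 the highest). T cell markers rose in 5 of 8 cases (3.36 to 17.02 and 44.8 to 191 CPM, CgA-KO replicate 2 again the highest) and natural killer cell markers in 3 of 6 (1.99 to 5.55 and 22.8 to 47.8 CPM). Dendritic cell markers rose in 1 of 6 cases (106 to 142 and 120 to 159 CPM), and B cell markers in 0 of 7. Platelet markers were called in 0 of 6 cases with a median log2 fold change of 2.46 (4.89 to 10.7 and 17.3 to 43.5 CPM). Mast cell and basophil markers summed to 3.94 to 6.36 CPM among WT livers and 3.53 to 4.63 CPM among CgA-KO livers, and 1 of the 8, Kit, was high enough to be tested.

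Several of these marker counts changed with a single library left out, and so did the count over all genes. The all-gene count of 1726 was 394 without WT replicate 3, 841 without WT replicate 2 and 976 without CgA-KO replicate 2. The all-gene count was not lower without WT replicate 1 (2126) or with limma-voom (1820). It was 1620 with the filter of a total of at least 1 count. T cell markers lost calls in each of these settings as well. The median log2 fold change of T cell markers was 3.435, and 3.339 without WT replicate 3 and 2.355 without CgA-KO replicate 2. For neutrophil markers it was 3.426, 3.312 and 2.515. Without WT replicate 3 the count was 0 for neutrophil and T cell markers, 2 for monocyte markers, 1 for natural killer cell markers and 0 for dendritic cell markers. Without WT replicate 2 it was 2 for neutrophil, 0 for T cell, 2 for monocyte, 1 for natural killer cell and 0 for dendritic cell markers. Without CgA-KO replicate 2 it was 1 for neutrophil, 2 for T cell and 0 for dendritic cell markers. For T cell markers it was 3 without CgA-KO replicate 1 or WT replicate 1. It was 0 with limma-voom and 1 with the filter of a total of at least 1 count. For dendritic cell markers the count was 2 without CgA-KO replicate 3.

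Sinusoidal endothelial cells, the other liver cells known for Fcgr2b, gave a mixed result. Of 9 tested markers 2 rose, Lyve1 (log2 fold change 2.81) and Cdh5 (1.92), and Clec4g fell (-1.11, edgeR adjusted p = 0.0135, and 0.0643 with scaling by library size alone), while the summed level was 133 to 161 CPM among WT livers and 143 to 200 CPM among CgA-KO livers. Cdh5 lost its call when WT replicate 2 or 3 or CgA-KO replicate 1 or 2 was left out, and 1 marker was then called higher. Stab2 was higher in every CgA-KO liver than in every WT liver but was not called (0.83, edgeR adjusted p = 0.0632). Bmp2 was lower in every CgA-KO liver than in every WT liver and was not called either (-0.72, edgeR adjusted p = 0.0667). With DESeq2 Stab2 was called (adjusted p = 0.0278), and of the 9 markers 3 were called higher and 2 lower. The median log2 fold change of the endothelial markers was -0.27 and that of Fcgr2b -0.10. The part of endothelial cells in the level of Fcgr2b was not tested. Stellate cell markers rose in 5 of 8 cases (183 to 241 and 355 to 500 CPM), in 1 without WT replicate 3, in 2 without CgA-KO replicate 1 or CgA-KO replicate 2 and in 3 without WT replicate 2. Hepatocyte markers were called in 0 of 10 cases and summed to 56010 to 96120 CPM among WT livers and 48370 to 84510 CPM among CgA-KO livers, so the tissue label held in all 6 libraries.

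The genes whose pattern over the 6 livers lay closest to that of Fcer1g, measured as the root mean square difference of log2 CPM after centring each gene, were Ctss (0.206), Lair1 (0.210), Lyve1 (0.218), Egr1 (0.228) and Cap2 (0.236). For Tyrobp they were Cyba (0.192), Il1r2 (0.193), Rab31 (0.197), Bcl2a1a (0.201) and Oas1a (0.203). These distances used log2 CPM with a prior count of 2, which narrows differences of genes with few counts. In the edgeR test Cap2 was at a log2 fold change of 4.14, against 2.83 for Fcer1g. Il1r2 was at 3.45, against 2.47 for Tyrobp. Within 0.5 of Fcer1g there were 158 genes, and within 0.5 of Tyrobp 176. Among the 9 genes, Fcer1g and Tyrobp (0.267), Fcgr1 and Fcgr4 (0.323) and Syk and Plcg2 (0.339) were the closest pairs. Fcgr3 was nearly as close to Fcer1g (0.340), Btk (0.352) and Tyrobp (0.356), so these pairs do not stand apart. Fcgr2b was at least 1.47 from each of the others.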

How the data were processed

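Paired-end poly(A) libraries were made from livers, 3 of WT and 3 of CgA-KO animals. The authors quantified reads with Salmon 1.4.0 against the GRCm38 transcriptome and deposited whole-number counts per gene symbol for each library. How transcripts were summed to genes and whether strand was used are not stated in the sources used here. The study itself compared genotypes with DESeq2.

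Here the deposited counts were tested with edgeR 4.0.16 in R 4.3.3: filterByExpr with a minimum count of 10, TMM factors, a robust quasi-likelihood fit, a two-sided test of genotype, and Benjamini-Hochberg adjustment over all 13867 genes tested, with calls at an adjusted p under 0.05. Ratios used CPM plus 0.5, and log2 CPM a prior count of 2. Floors cover counting error only. Loci and lengths came from GENCODE for GRCm38, and promoters from RefSeq. Groups and replicate numbers follow the sample titles. The titles give no pairing beyond the replicate number. Pairing was checked by correlating, over genes, the deviations of WT and CgA-KO livers from their group means. With so few livers per genotype this check cannot decide whether same-numbered livers were paired.

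The 9 genes and all lists were chosen with earlier results of these data known. The rule for naming genes took, per pathway list, the 3 genes with the smallest p and, per marker list, the 2 with the highest mean CPM. It added the 5 closest in pattern to Fcer1g and to Tyrobp, and Csf1r. Some genes under this rule are left out, among them many from the marker lists, which are given mainly as counts and sums. Other genes named were chosen after their values were seen. Alternatives were DESeq2 1.42.0, library-size and upper-quartile scaling, 2 other filters, limma-voom (limma 3.58.1), a replicate block, an adjusted p under 0.01, and leaving out each library. The edgeR, DESeq2 and limma-voom fits were tested on simulated data drawn from these libraries. All directions of called genes were recovered, and the share of false calls was above the nominal level with each tool. Figures were drawn with matplotlib 3.10.9.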

Additional observations from a re-analysis of the deposited data

How the results depend on the processing

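The count of 6 called genes was 7 with DESeq2 (18.8% of all genes called), 8 with limma-voom, 5 at an adjusted p under 0.01, 6 under the other scalings and filters, and 3 to 8 with each library left out; the 3 without WT replicate 2 were Fcgr4, Fcer1g and Tyrobp. Among the pathway genes tested, 58 were called, 18 at an adjusted p under 0.01, and 17 (without WT replicate 3) to 71 (without WT replicate 1) with a library left out. DESeq2 called 69 higher and 2 lower, Plcg1 and Vav2. Over all genes 1726 were called, 2601 with DESeq2, 360 at an adjusted p under 0.01, and 394 to 2126 with a library left out. The cause of these shifts was not tested.

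With the replicate number as a block, 8 of the 9 genes were called, Syk at 2.18 on the log2 scale (edgeR adjusted p = 0.0440) and Plcg2 at 2.62 (0.0457) included. The pathway and all-gene counts were 57 and 1498. The labels give no pairing beyond the number; same-numbered livers deviated from their group means with correlations of 0.199, 0.013 and -0.066 over genes, and WT replicate 2 was closest to CgA-KO replicate 3 (0.234). Syk was also called with limma-voom (2.47, adjusted p = 0.0333), and Plcg2 with DESeq2 (1.92, adjusted p = 0.0328) and limma-voom (2.96, adjusted p = 0.0122). All 162 recomputed values of the 18 ratios moved by less than the replicate spread. Leaving out a library cannot move a mean of so few livers further than that. A change of scaling nearly cancels within a library. This count therefore says little about how stable the ratios are.

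Among the named genes recomputed, directions turned only for genes that were not called. Scaling by library size alone gave log2 fold changes of 0.15 for Fcgr2b, 0.14 for Pigr, 0.082 for Alb, 0.20 for Cyp2e1 and 0.24 for Ptpn11 (0.023 with upper-quartile factors). For Marco, limma-voom gave -0.89 and the replicate block -0.86. With each library left out the ranges were -0.41 to 0.13 for Fcgr2b, -0.30 to 0.018 for Pigr, -0.091 to 1.27 for Spp1, -0.046 to 0.28 for Bst2, -0.016 to 0.31 for Tcf4, -0.11 to 2.86 for Cd79b, -0.40 to 0.005 for Alb, -0.54 to 0.11 for Cyp2e1, -0.093 to 0.091 for Ptpn11 and -3.43 to 2.69 for Marco. Of 778 recomputed values of 61 genes other than the 9, 83 lost a call, 8 gained one and 20 turned. Depth limits the low WT levels: Fcgr1, Btk and Plcg2 rest on 14 to 79 counts per WT library.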
